A study of Homo sapiens with 2 samples.

Results

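Matrix metalloproteinases (MMPs) and their tissue inhibitors (TIMPs) were compared between 2 lines of MKN1, an established gastric carcinoma line of human origin. The lines overexpressed either wild-type RHOA or RHOA with the Y42C substitution, in both cases from a pBABE vector under puromycin selection. RHOA, a small GTPase, drives actomyosin contraction. Each line was measured on 1 array, and neither untransfected cells nor an empty-vector control were analysed here. The labels do not say whether a line was a pool or a clone. A difference therefore cannot be assigned to one of the lines, and it carries neither an error nor a test. The genes were those whose symbol in the platform annotation was MMP1, MMP3, MMP7, MMP9, MMP10, MMP13, MMP14, TIMP1, TIMP2 or TIMP3. The set was selected on the difference in log2 signal between these same arrays, so those differences are descriptions. The annotation named 9 of these 10 genes, each by 1 probe set, among 17687 genes in all. TIMP2 was not analysed here.

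MMPs are zinc-dependent endopeptidases that are made as inactive precursors and cleave collagens, laminins, fibronectin and cell-surface proteins once a propeptide is removed. TIMPs bind the active site of the mature enzymes and block it. In gastric and other carcinomas MMPs are studied for their part in the breakdown of the basement membrane and stroma, and many of their promoters respond to AP-1, the FOS and JUN dimers that act below growth factor receptors.

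Values are the deposited signals, taken as log2, and differences are Y42C minus wild-type. A signal counted as above the minimum when it reached the 95th percentile of 349 olfactory receptor genes on the same array, which was 5.17 for wild-type and 5.14 for Y42C. A gene below the minimum on 1 array gets only a lower bound for its fold, taken against that array's minimum. At least 1 array was above the minimum for 11802 genes, of which 7.46% exceeded wild-type by 2-fold or more in the Y42C line and 9.8% fell short of it by as much, with a median difference of -0.07. RHOA itself read 16.47 on the wild-type array and 16.30 on the other. This signal was not split between the cells' own RHOA and that of the vector, so it does not give the level of either. The keratins KRT7, KRT8, KRT18 and KRT19 read between 16.19 and 17.96 on both arrays and EPCAM at least 13.30, as epithelial markers, whereas the epithelial cadherin gene CDH1 was below the minimum on both (3.92 and 3.86).

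On the Y42C array, 6 of the 9 genes were at least 2-fold higher and 0 were at least 2-fold lower. The shares were 7.46% and 9.8% over the 11802 genes above the minimum on at least 1 array, which include 8 of the 9. All 6 were MMPs: the collagenases MMP1 and MMP13, the gelatinase MMP9, the stromelysins MMP3 and MMP10, and the membrane-anchored MMP14. The inhibitors TIMP1 and TIMP3 differed by less than 2-fold, and the matrilysin MMP7 was below the minimum on both arrays. In RNA from whole cultures, more cells that make a transcript and more transcript per cell cannot be told apart. Because the set was chosen by these differences, the count describes it and supports nothing further. The median difference over the 9 genes was 2.31, which is that of MMP13, dim on the wild-type array, and over all 17687 genes it was -0.02. The median of the 9 was 1.63 once dimmer values were raised to the minimum. Counting only the lower bound where 1 array was below the minimum left the counts at 6 and 0, beside 6.68% and 9.1% of the 11802. At 4-fold 5 genes were higher and 0 lower in the deposited values, beside 1.0% and 0.585% of the 11802. With the lower bounds of MMP10 and MMP13 this became 3 and 0, beside 0.898% and 0.508%. At 1.5-fold the counts were 7 and 0, beside 17.8% and 23.4%.

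**Figure D1:**
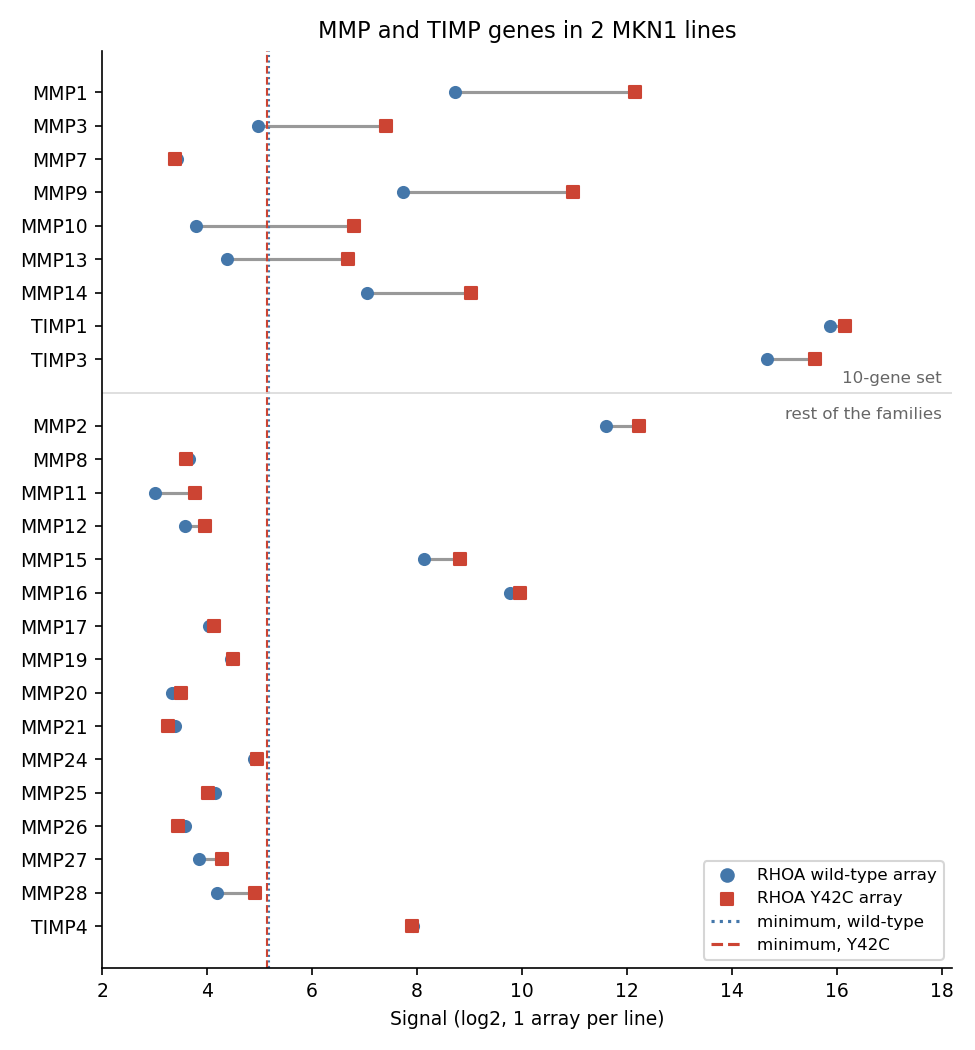
Signal (log2, horizontal axis) of each named MMP and TIMP gene on the wild-type array (circles) and the Y42C array (squares), 1 array per line; the vertical lines mark the minimum of each array at 5.17 and 5.14. MMP1, MMP9 and MMP14 lay above the minimum on both arrays and further right on the Y42C array, whereas MMP3, MMP10 and MMP13 crossed the minimum between the arrays. Probe sets differ in response, so positions are not compared between genes.

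The collagenases open the triple helix of fibrillar collagen. MMP1, the interstitial collagenase, read 8.72 on the wild-type array and 12.16 on the Y42C array. Both values were above the minimum, and the Y42C value was 10.9-fold higher. Ordered from the most positive difference, MMP1 had rank 10 of 11802 genes. MMP13, a collagenase with a strong preference for type II collagen, read 4.37 and 6.68. The wild-type value was below the minimum, so the Y42C value was at least 2.84-fold higher, and the difference of 2.31 in the deposited values rests on a wild-type signal that olfactory receptor genes also reach.

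The gelatinases degrade denatured collagen and the type IV collagen of basement membranes. MMP9, gelatinase B, read 7.74 on the wild-type and 10.97 on the Y42C array, which was 9.38-fold higher and had rank 12 of 11802. MMP2, gelatinase A, which is not among the 10 genes, read 11.60 and 12.24 and thus differed by 0.64. The gelatinases therefore stood on different sides of the 2-fold threshold, with the Y42C array higher for both.

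The stromelysins cleave a broad range of matrix proteins and can activate other proMMPs. MMP10, stromelysin-2, read 3.78 on the wild-type and 6.80 on the Y42C array. It was below the minimum on the first and above it on the second, and the bound was at least 3.09-fold higher. MMP3, stromelysin-1, read 4.97 and 7.41, and was at least 4.72-fold higher. The stromelysins are close in sequence, and the sources used here do not give probe positions, so signal shared between their probe sets was not tested. MMP7, matrilysin, a small MMP of glandular epithelium without the hemopexin domain, read 3.42 and 3.38. Neither value was above the minimum, so no fold is given.

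MMP14 is anchored in the plasma membrane, where it cleaves fibrillar collagen and, together with TIMP2, activates proMMP2. It read 7.04 on the wild-type and 9.02 on the Y42C array, which was 3.94-fold higher and had rank 121 of 11802. The other membrane-anchored MMPs named here did not pass 2-fold. MMP15 read 8.14 and 8.81, and MMP16 read 9.78 and 9.97. The remaining ones, MMP17, MMP24 and MMP25, were below the minimum on both arrays.

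TIMP1, a secreted inhibitor of most MMPs, read 15.87 on the wild-type and 16.15 on the Y42C array, a difference of 0.28 (1.21-fold higher). TIMP3, which binds to the matrix and also blocks ADAM and ADAMTS proteases, read 14.68 and 15.59, a difference of 0.91 (1.88-fold higher). Among genes in order of difference TIMP1 had rank 3547 and TIMP3 rank 1072. TIMP4, outside the 10 genes, read 7.92 and 7.90. None of the TIMP genes named here was at least 2-fold apart, and none was lower by more than 0.02.

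The spread of differences varies with signal level, so genes were also placed among genes of like mean level, in 20 bins. The bins of the 5 genes above the minimum on both arrays had 589 to 592 genes each. MMP9 had rank 2 from the most positive difference in its bin, MMP1 rank 3 and MMP14 rank 7. In these bins between 6.59% and 8.83% of genes were at least 2-fold higher. No rank is given for MMP3, MMP10 and MMP13, which passed the minimum through the Y42C array alone. TIMP1 and TIMP3 fell in the brightest bin, where 5.08% were, at ranks 158 and 35 of 591. These ranks are a description of 2 arrays.

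**Figure D2:**
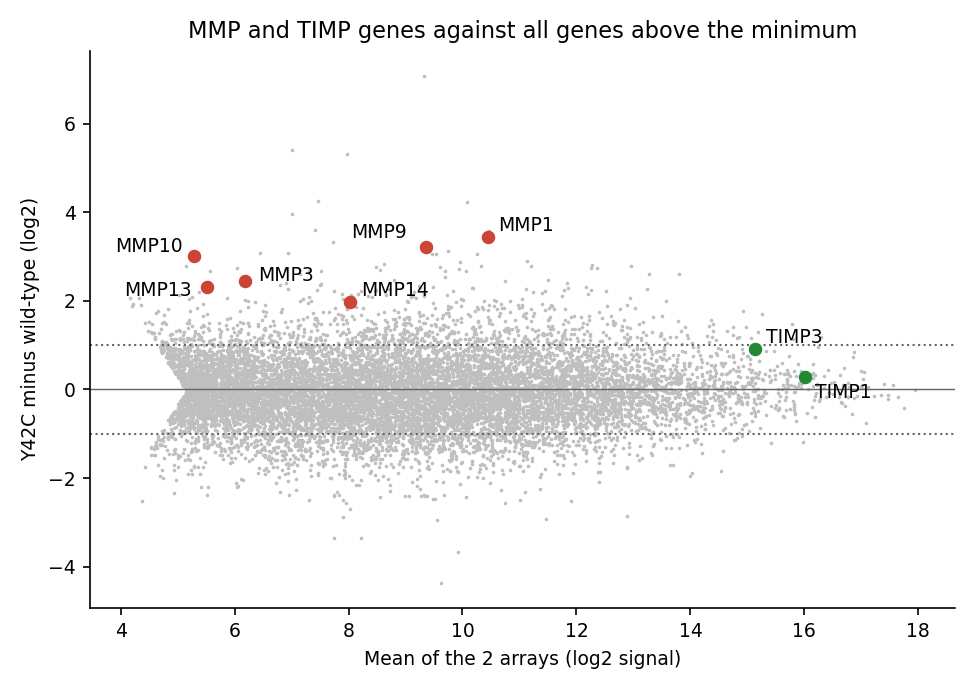
Difference between the arrays (Y42C minus wild-type, log2, vertical axis) against their mean (log2 signal, horizontal axis) for 11802 genes above the minimum (grey), with MMP genes in red and TIMP genes in green; dotted lines mark 2-fold. The 6 MMP genes lay between 1.98 and 3.44 in the deposited values, with MMP3, MMP10 and MMP13 below the minimum on the wild-type array. TIMP1 and TIMP3 lay at 0.28 and 0.91 at the bright end. MMP7 is not drawn because it was below the minimum on both arrays.

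The rest of the MMP and TIMP families comprised 17 genes, of which 16 were named here. Of these, 12 were below the minimum on both arrays, and the 4 above it were MMP2, MMP15, MMP16 and TIMP4. At least 2-fold apart were 0 of the 4, beside 7.46% higher and 9.8% lower of the 11802 genes above the minimum. The 12 were MMP8, MMP11, MMP12, MMP17, MMP19, MMP20, MMP21, MMP24, MMP25, MMP26, MMP27 and MMP28, with values between 3.01 and 4.95. Their products include the neutrophil collagenase MMP8, the macrophage elastase MMP12 and the enamel protease MMP20. Differences over the 16 genes ran from -0.13 to 0.76, with a median of 0.14, and of 0.42 over the 4. Over both families 25 genes were named, 12 were above the minimum on at least 1 array, and the 6 at least 2-fold higher were the 6 already given. The 10 genes were chosen by these differences, so their contrast with the rest of the families is a description only.

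Of the 9 genes, MMP1, MMP3, MMP7, MMP10 and MMP13 lie in 1 cluster on chromosome 11 with MMP8, MMP12, MMP20 and MMP27. By gene order in RefSeq (GRCh38.p14) the cluster runs MMP7, MMP20, MMP27, MMP8, MMP10, MMP1, MMP3, MMP12, MMP13. MMP10, MMP1 and MMP3 are neighbours, and MMP13 follows after MMP12. On the Y42C array these 4 were at least 2-fold higher, and the other 5 genes of the cluster were below the minimum on both arrays. MMP12, between MMP3 and MMP13, read 3.58 and 3.95, and MMP8, beside MMP10, read 3.65 and 3.59. For these 5 no difference could be measured.

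The 10 nearest named protein-coding genes on each side were read for comparison. The minimum was passed by 12 of these 20 genes. Over all 11802 genes above it, 7.46% were higher by 2-fold or more and 9.8% lower by as much. Of the 12 neighbours, 0 were higher and 2 lower past 2-fold. The 2 were ARHGAP42, a GTPase-activating protein for RHOA, which was 2.53-fold lower (10.29 and 8.95), and the inflammatory caspase gene CASP1, at least 2.13-fold lower (6.23 and 4.48). The genes nearest to the cluster, TMEM123 beyond MMP7 and DCUN1D5 beyond MMP13, differed by -0.19 and -0.95. The transcriptional coactivator gene YAP1, on the MMP7 side, differed by 0.22. In RefSeq a transcribed pseudogene, WTAPP1, overlaps MMP1 and MMP3, and whether its RNA adds to their signal was not tested.

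**Figure D3:**
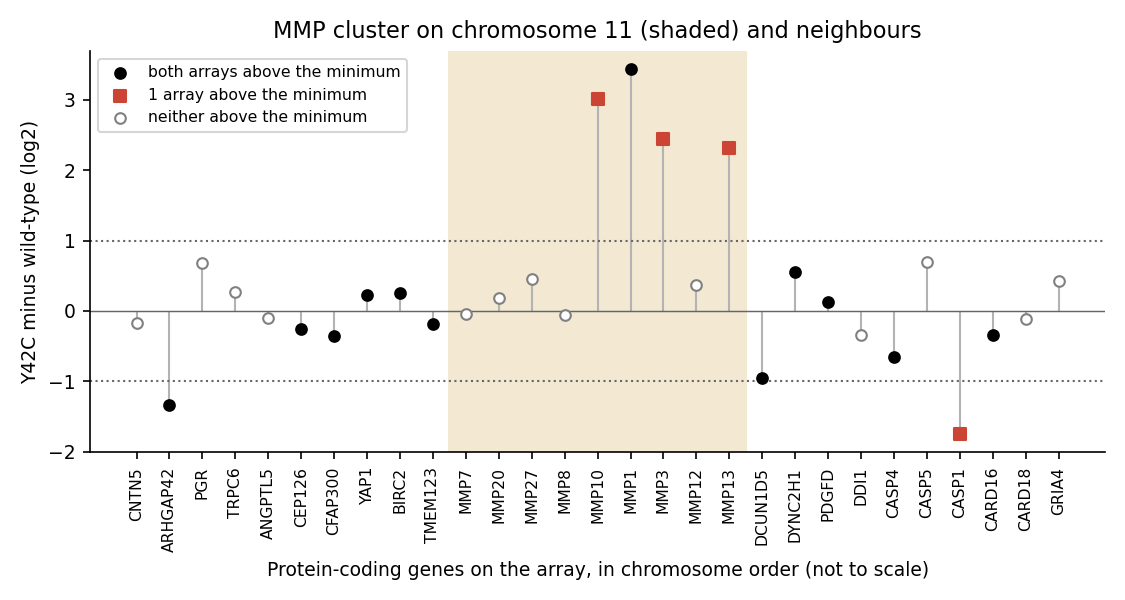
Difference between the arrays (Y42C minus wild-type, log2, vertical axis) for the 9 genes of the MMP cluster (shaded) and 10 named protein-coding genes on each side, in chromosome order and not to scale; dotted lines mark 2-fold. MMP10, MMP1, MMP3 and MMP13, from the set chosen by these differences, lay between 2.31 and 3.44 in the deposited values. Squares are genes above the minimum on 1 array only. MMP10, MMP3 and MMP13 are among the squares, and differed by 1.63, 2.24 and 1.51 with dimmer values raised to the minimum. The highest neighbour above the minimum lay at 0.55. Open circles are genes below the minimum on both arrays.

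RefSeq promoter sequences were at hand for 5 of the 10 genes: MMP7, MMP10, MMP14, TIMP1 and TIMP3. The 250 bases before each start were searched on both strands for letter patterns. These were TGANTCA (the AP-1 site with any middle base, which reads alike on both strands) and AGGAAG (a form of the ETS site, CTTCCT on the other strand). TATAAA (the TATA box) and GGGCGG (the GC box bound by SP1, CCGCCC on the other strand) were searched too. Shorter forms of the ETS site were not searched. MMP10 and MMP7 are shown because both lie in the chromosome 11 cluster and hold AP-1 and TATA matches. MMP14 and TIMP3 are shown as examples that hold neither. TIMP1 holds neither as well and is not shown. Matches are in capitals, and no match overlapped that of another motif.
MMP10: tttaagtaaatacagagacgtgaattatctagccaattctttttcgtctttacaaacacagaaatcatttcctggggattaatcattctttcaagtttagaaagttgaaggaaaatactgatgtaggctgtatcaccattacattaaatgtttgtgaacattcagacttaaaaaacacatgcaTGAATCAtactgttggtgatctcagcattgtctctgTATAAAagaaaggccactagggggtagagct
MMP7: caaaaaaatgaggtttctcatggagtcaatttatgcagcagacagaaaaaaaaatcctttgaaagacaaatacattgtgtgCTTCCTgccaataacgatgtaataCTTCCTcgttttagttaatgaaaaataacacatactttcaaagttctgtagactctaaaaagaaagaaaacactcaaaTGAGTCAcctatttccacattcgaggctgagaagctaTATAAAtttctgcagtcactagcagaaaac
MMP14: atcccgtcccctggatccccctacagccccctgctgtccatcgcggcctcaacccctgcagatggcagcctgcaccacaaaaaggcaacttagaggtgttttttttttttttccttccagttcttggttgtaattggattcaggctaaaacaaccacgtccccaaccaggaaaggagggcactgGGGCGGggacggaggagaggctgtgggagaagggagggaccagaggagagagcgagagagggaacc
TIMP3: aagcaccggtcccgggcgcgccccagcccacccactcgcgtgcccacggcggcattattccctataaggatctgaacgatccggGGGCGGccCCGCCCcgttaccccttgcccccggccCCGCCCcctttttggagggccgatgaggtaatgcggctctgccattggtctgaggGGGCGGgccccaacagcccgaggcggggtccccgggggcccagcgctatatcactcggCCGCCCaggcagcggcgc

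These stretches lie, in GRCh38.p14, at chr11:102780629-102780878 (minus strand) for MMP10, chr11:102530748-102530997 (minus strand) for MMP7, chr14:22836335-22836584 (plus strand) for MMP14 and chr22:32801455-32801704 (plus strand) for TIMP3. In MMP10 the AP-1 match, TGAATCA, began 67 bases before the start, and TATAAA began 31 bases before it. In MMP7 the AP-1 match, TGAGTCA, also began 67 bases before the start and TATAAA 30 bases before it, and there were 2 ETS matches, 145 and 169 bases before it. MMP10 and MMP7 therefore hold the AP-1 and TATA matches at nearly the same distance. Matches to the ETS pattern searched were in MMP7 alone of the 2. MMP10 was above the minimum on the Y42C array and MMP7 on neither array.

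MMP14 had neither an AP-1 nor a TATA match in this window and 1 GC box, 66 bases before the start. TIMP3 had 5 GC boxes and no other match, and TIMP1 had 2 GC boxes and 1 ETS match. The share of G and C was 34.4% for MMP10 and 33.6% for MMP7, against 56.8% for MMP14, 64.8% for TIMP1 and 72.4% for TIMP3. Over all 35116 RefSeq promoters of the same length, 6.57% held the AP-1 match, 10.7% the TATA match, 28.7% the ETS match, 42.6% the GC box, and 1.07% both the AP-1 and the TATA match. Of 14 MMP and TIMP genes that were named on the array and had a promoter sequence, the AP-1 match was found in 3. These were MMP7, MMP10 and MMP20, which all held the TATA match too. The AP-1 match read TGAGTCA in MMP7 and TGAATCA in MMP10 and MMP20. A match describes letters and is not a site in use.

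Genes that act with MMPs were taken from lists chosen with earlier results of these arrays known, so their counts are descriptions. They are to be read beside the 7.46% and 9.8% of all genes above the minimum. Among proteases and receptors that activate proMMPs or feed the plasmin route, 11 were named and 9 above the minimum. Of these, 5 were at least 2-fold higher and 1 lower, and the median difference over the 11 was 1.09, and 1.35 over the 9. Urokinase, PLAU, which converts plasminogen to plasmin, read 7.21 and 9.91 (6.5-fold higher), and its receptor PLAUR read 8.93 and 10.39 (2.75-fold higher). PLAT, the other plasminogen activator of the list, read 14.28 and 14.35 and thus differed by 0.07. The proprotein convertase FURIN, which cleaves the propeptide of MMP14, read 8.02 and 10.03 (4.03-fold higher), and PCSK5, of the same enzyme family, 11.13 and 12.48 (2.55-fold higher). Matriptase, ST14, a membrane serine protease, read 11.13 and 13.38 (4.76-fold higher). Prostasin, PRSS8, was the lower one, at 8.93 and 6.94 (3.97-fold lower). Plasminogen itself, PLG, was below the minimum on both arrays (3.50 and 4.59).

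Inhibitors other than TIMPs differed in both directions. Of 10 named, 5 passed the minimum, and 1 was at least 2-fold higher and 1 lower; the median difference was 0.10 over the 10 and 0.16 over the 5. RECK, a membrane-anchored inhibitor of MMP9, MMP2 and MMP14, read 8.38 on the wild-type and 7.03 on the Y42C array (2.55-fold lower). The Y42C array was higher for MMP9, MMP14 and MMP2, for MMP2 by less than 2-fold (0.64). A relation between RECK and these genes was not tested. SPINT1, an inhibitor of matriptase, read 8.92 and 11.72 (6.96-fold higher). The clearance receptor LRP1 differed by 0.16, and the broad protease inhibitor A2M was below the minimum on both arrays.

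Among 13 proteins that induce MMPs or hold them at the cell surface, all passed the minimum. Of these, 5 were at least 2-fold higher and 1 lower; the median difference was 0.55. BSG, also called EMMPRIN for its induction of MMPs in neighbouring cells, read 15.24 and 16.37 (2.19-fold higher). The integrin genes ITGAV, ITGB3 and ITGA2 were 3.58-fold, 3.39-fold and 3.68-fold higher; the integrin made of the first and second of these binds MMP2, and the product of ITGA2 is a collagen receptor subunit to which MMP1 binds. The tight junction gene CLDN1 was 2.68-fold higher, and the tetraspanin gene CD9 2.62-fold lower. CD44, a docking protein for MMP9, differed by 0.36, and LCN2, which forms a complex with MMP9, by 0.55.

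AP-1 subunits varied among themselves. Of 10 named, 9 passed the minimum, with 2 at least 2-fold higher and 0 lower. The median difference was 0.27 over the 10 and 0.48 over the 9. FOSL1 read 10.89 and 13.63 (6.68-fold higher) and FOSB 6.14 and 8.13 (3.97-fold higher). FOS read 8.20 and 8.26, JUN 5.77 and 6.68, and JUNB 10.84 and 10.45, all within 2-fold. Of 10 ETS factors 3 were at least 2-fold higher and 1 lower, around a median difference of 0.29. ETS1 was 2.51-fold and ETV4 2.16-fold higher, EHF at least 1.63-fold higher, and ETV1 2.36-fold lower. EHF passed 2-fold only in the deposited values, since its wild-type value of 4.68 was below the minimum.

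Of 14 other factors reported at MMP or TIMP promoters, 4 were at least 2-fold higher and 1 lower, around a median difference of 0.22. RUNX1 read 10.99 and 13.73 (6.68-fold higher), and RUNX2, a regulator of MMP13 in bone and cartilage, 10.54 and 11.61 (2.1-fold higher). SNAI2 was 4.08-fold and EGR1 3.56-fold higher. CTNNB1, beta-catenin, lay at the threshold, 2.0-fold lower (13.81 and 12.81), and 0 of these factors were 2-fold lower with centred arrays, quantile normalization, the trend on level removed or 16 added to the linear value. The NF-kB subunit genes NFKB1 and RELA differed by 0.25 and -0.95.

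Growth factors, cytokines and receptors that induce MMPs had 17 of 20 named genes above the minimum, 2 at least 2-fold higher and 2 lower. The median difference was 0.10 over the 20 and 0.07 over the 17. HBEGF, a ligand of the EGF receptor, read 8.55 and 10.05 (2.83-fold higher), and TGFB1 11.14 and 12.37 (2.35-fold higher). TGFBR1, a receptor of TGFB1, was 2.62-fold lower (11.59 and 10.20). IL6 was at least 1.69-fold lower, its Y42C value of 4.73 being below the minimum. It passed 2-fold only in the deposited values, and with lower bounds counted 1 gene of this list was lower. EGFR differed by 0.04 and IL1B by 0.01.

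Matrix proteins that MMPs cleave had 11 of 16 named genes above the minimum, 4 at least 2-fold higher and 0 lower. The median difference was 0.21 over the 16 and 0.03 over the 11. The collagen genes COL5A1 and COL1A2 were 6.92-fold and 2.06-fold higher, fibronectin, FN1, 6.92-fold, and tenascin C, TNC, 6.36-fold. COL1A1, a chain of type I collagen, differed by -0.21 (6.05 and 5.84), and COL4A2, a chain of type IV collagen, also by -0.21. Of 9 ADAM and ADAMTS proteases that TIMP3 blocks, 3 were above the minimum, with 1 higher by 2-fold or more and 0 lower. The median difference was 0.27 over the 9 and -0.27 over the 3. ADAMTS1 was at least 2.14-fold higher (4.42 and 6.27), and ADAM10 and ADAM17, the main sheddases, differed by -0.27 and -0.75.

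**Figure D4:**
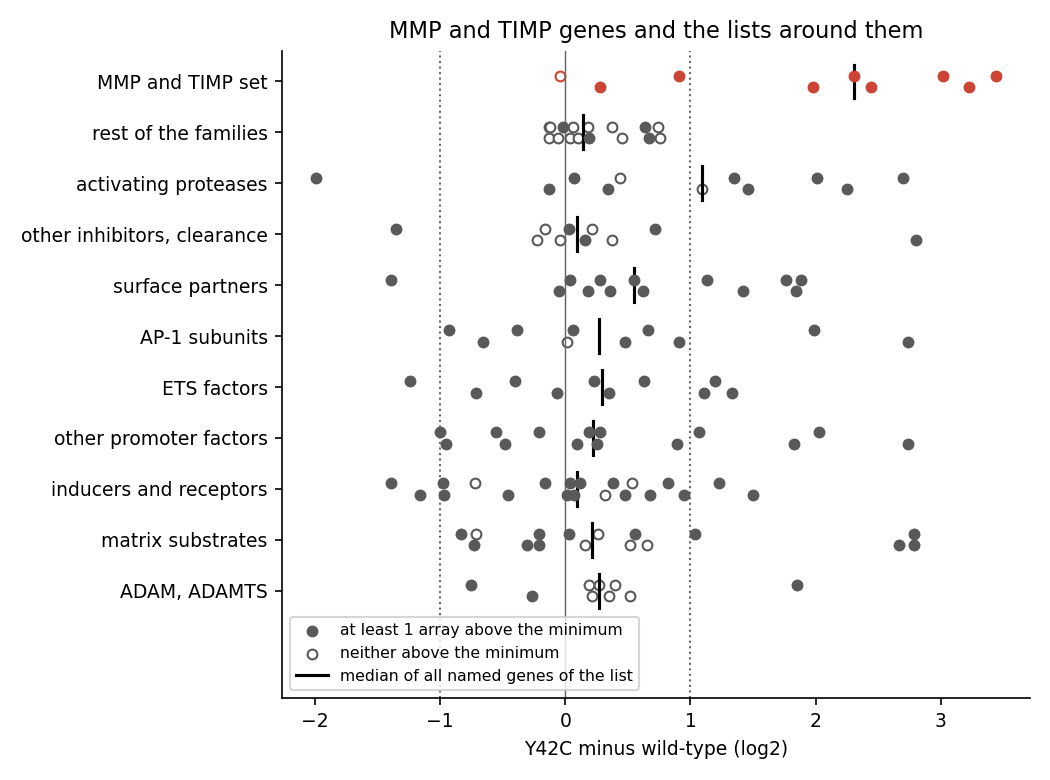
Difference between the arrays (Y42C minus wild-type, log2, horizontal axis) for the named genes of each list; filled points were above the minimum on at least 1 array, open points on neither, bars are medians over all named genes of a list, and dotted lines mark 2-fold. The median of the MMP and TIMP set was 2.31 (1.63 with dimmer values raised to the minimum), that of the rest of the families 0.14 and that of the activating proteases 1.09 (1.35 over the 9 above the minimum). Some genes near the lists' ends have only a lower bound.

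Fibroblasts, leukocytes and endothelium also make MMPs, so their markers were read on both arrays. Of 6 fibroblast markers named, PDGFRA, PDGFRB, THY1, DCN and FAP were below the minimum on both arrays, and COL1A1 was above it. The summed signal of these 6 was 7.29 on the wild-type and 7.47 on the Y42C array. Of 9 leukocyte markers, 5 were below the minimum on both arrays, among them ITGAM, MPO, LYZ and S100A12 of myeloid cells. CSF1R, a macrophage marker, was above it on both (6.14 and 6.42). CD14 was 3.43-fold lower in the Y42C array, and PTPRC and CD3E crossed the minimum, at least 1.16-fold and 1.41-fold higher. The summed signal of the 9 was 8.48 and 8.22. Of 4 endothelial markers, PECAM1 and VWF were above the minimum and CDH5 and KDR below it, with summed signals of 7.29 and 7.70. Sums were taken on the linear scale and are given as log2. The part of other cells in the MMP signals was not tested.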

How the data were processed

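Each of 21448 probe sets has 1 deposited log2 signal per array, processed by the authors in Affymetrix Expression Console, per the submitters' processing notes. Version, settings, normalization between arrays and log base were not stated in the sources. The values run from 2.23 to 18.16, with array medians of 6.42 and 6.36, and were read as log2 for that reason and used without further scaling. Every fold rests on that reading. The annotation named 17709 probe sets by 1 gene, 0 by several, and left 3739 unnamed. Signals of probe sets with the same gene were averaged; each member had 1 probe set.

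With 1 array per group there was no test, and the arrays' number limits the precision. Differences, folds, lower bounds and counts past 2-fold are given. The members and lists were chosen with earlier results of these data known. Named are the members, the rest of their families, list genes past 2-fold (otherwise the extreme ones) and cluster neighbours past 2-fold; other genes were named after their values were seen. Alternatives were other scalings, minimums, thresholds and treatments of low values. Promoters are RefSeq's (GRCh38.p14). The planned search of protein motifs was not run. Code was tested on simulated data. Software was Python 3.11.15 with NumPy 2.4.6, matplotlib 3.10.9, statsmodels 0.14.6 and pandas 2.3.3.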

Additional observations from a re-analysis of the deposited data

How the results depend on the processing

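On the Y42C array the count of MMP and TIMP genes at least 2-fold higher was 6 under every alternative scaling, minimum and treatment of low values tried, 7 at 1.5-fold (with TIMP3) and 5 at 4-fold (without MMP14), of which 3 with lower bounds counted, and 0 were lower under any. Across 10 alternatives the difference of MMP1 ran from 3.39 to 3.56, of MMP9 from 3.14 to 3.36 and of MMP14 from 1.86 to 2.11. That of TIMP1 ran from 0.20 to 0.34 and that of TIMP3 from 0.86 to 0.97. Other minimums, raising dim values to the minimum and taking the brightest probe set could not alter these differences. Each of these genes had 1 probe set and was above the minimum on both arrays. The ranges therefore come from the other scalings and from 16 added to the linear value. Genes dim on the wild-type array depended on how low values were treated. MMP10 differed by 2.10 with 16 added to the linear value and by 1.63 with dimmer values raised to the minimum, and MMP13 by 1.69 and 1.51. The latter setting also lowered the median over the 9 genes to 1.63. In the lists, at 4-fold 3 of 9 activating proteases, 1 of 9 AP-1 subunits and 1 of 5 other inhibitors were higher. So were 2 of 14 other promoter factors, and 0 genes of these lists were lower. For ETS factors, inducers and receptors, surface partners, and ADAM and ADAMTS proteases, 0 passed 4-fold in either direction. Over the 11802 genes above the minimum 1.0% were higher and 0.585% lower by as much. At 1.5-fold, of 9 AP-1 subunits 4 were higher and 2 lower, and of 17 inducers and receptors 5 and 4. The rest of the families had 2 higher and 0 lower of 4, and ADAM and ADAMTS proteases 1 and 1 of 3. The shares of the 11802 at 1.5-fold were 17.8% higher and 23.4% lower. With the minimum at percentile 99 of olfactory receptor genes, or at the array median, 0 ADAM and ADAMTS proteases were counted. MMP7, below the minimum on both arrays, ran from -0.09 to 0.02, so its sign has no meaning here. No gene at least 2-fold apart among the 9 changed sign under the alternatives tried. No paired analysis was possible because there is 1 array per group. MMP3, MMP10 and MMP13 have no measured fold, only a bound, and signals of MMP7 are too dim for a comparison.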
